A study of Homo sapiens with 24 samples.

Results

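The genes of the interleukins, their receptors and their soluble antagonists were taken by name from RNA-seq of U2OS osteosarcoma cells in which ID3 had been knocked out and to which the class I HDAC inhibitor mocetinostat had been added. A gene was a member when its symbol was IL followed by a number and, where present, further letters or digits, and 5 pseudogenes were left out, which gave 86 symbols among the 57820 genes counted. They comprised 41 ligands, 38 receptor chains, 6 antagonists or decoy receptors and 1 enzyme, IL4I1, which carries the IL name without being a cytokine. Of the 86 members, 80 had a count in at least 1 library, and IL2, IL17A, IL21, IL22RA2, IL25 and IL26 had none in any of the 24 libraries.

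There were 8 groups of 3 biological replicates. WT and ID3-KO cells labelled U2OS were either untreated or collected at the end of 24 h in mocetinostat (treated, before recovery). WT and ID3-KO cells labelled AID-DIvA U2OS, a U2OS derivative that carries the inducible nuclease AsiSI for cutting DNA at known sites, were either untreated or had 24 h of mocetinostat and then 24 h in drug-free medium (treated and recovered). No dose of mocetinostat was given for the RNA, induction of the nuclease was not mentioned for these libraries, and whether the ID3-KO cells were 1 clone was not stated. The stage was taken from the design text and the methods. Every library after recovery was AID-DIvA and every library before it U2OS, so stage and cell line label cannot be told apart. The library names of the U2OS samples also carry the word DivA. For the AID-DIvA samples the treatment field of the labels contradicted the sample titles, and the titles were followed. The titles and the main text of the paper call the controls untreated, while headings in its supplementary figures name DMSO.

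Interleukins are secreted signals that act through paired receptor chains at the cell surface. Chains are shared: IL2RG (the common gamma chain) serves the receptors of IL-2, IL-4, IL-7, IL-9, IL-15 and IL-21, IL6ST (gp130) serves those of IL-6, IL-11 and IL-27, and IL1RAP serves the receptors of IL-1, IL-33 and IL-36. Many of these receptors signal through JAK kinases and STAT factors, held back by SOCS proteins, whereas the IL-1 and IL-17 receptors signal through adaptors towards NF-kB. Mesenchymal cells are known sources of IL-6, IL-8 and IL-11, whereas IL-2 and IL-21 come from lymphocytes.

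The sequences upstream of the start site are shown for 5 members on which the results turn: IL8, IL24, IL1A and IL21R, higher after treatment at both stages, and IL1RAP, higher only before recovery. They are the 250 bases before a RefSeq start site in GRCh38.p14, 5′ to 3′ on the strand of the gene. Capitals mark matches, on either strand, to the AP-1 motif TGANTCA or the NF-kB motif GGNNTTTCC. RefSeq lists IL8 as CXCL8.
IL8 (chr4:73740319-73740568, + strand): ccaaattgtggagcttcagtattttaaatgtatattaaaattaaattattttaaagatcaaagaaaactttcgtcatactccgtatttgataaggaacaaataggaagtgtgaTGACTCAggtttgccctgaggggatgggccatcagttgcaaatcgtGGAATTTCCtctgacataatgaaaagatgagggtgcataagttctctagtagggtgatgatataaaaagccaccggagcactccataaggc
IL24 (chr1:206897193-206897442, + strand): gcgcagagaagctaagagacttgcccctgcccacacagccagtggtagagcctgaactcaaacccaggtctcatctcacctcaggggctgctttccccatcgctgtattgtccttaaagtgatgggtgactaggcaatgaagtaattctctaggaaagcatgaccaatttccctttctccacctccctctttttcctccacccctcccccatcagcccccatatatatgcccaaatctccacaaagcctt
IL1A (chr2:112784494-112784743, - strand): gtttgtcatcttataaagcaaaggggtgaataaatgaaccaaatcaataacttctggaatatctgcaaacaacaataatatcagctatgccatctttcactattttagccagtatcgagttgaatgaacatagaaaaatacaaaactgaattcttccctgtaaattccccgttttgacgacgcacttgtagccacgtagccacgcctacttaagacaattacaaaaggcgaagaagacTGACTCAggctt
IL21R (chr16:27427021-27427270, + strand): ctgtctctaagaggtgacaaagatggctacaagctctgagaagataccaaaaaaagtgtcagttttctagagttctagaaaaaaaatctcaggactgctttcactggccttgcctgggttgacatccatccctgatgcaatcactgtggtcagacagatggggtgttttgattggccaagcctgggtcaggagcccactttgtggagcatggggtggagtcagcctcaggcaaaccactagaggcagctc
IL1RAP (chr3:190513835-190514084, + strand): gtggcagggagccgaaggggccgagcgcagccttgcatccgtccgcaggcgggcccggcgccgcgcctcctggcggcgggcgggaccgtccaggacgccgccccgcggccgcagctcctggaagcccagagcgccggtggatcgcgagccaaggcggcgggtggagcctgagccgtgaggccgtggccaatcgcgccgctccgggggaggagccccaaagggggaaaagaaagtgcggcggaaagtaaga

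The IL8 stretch holds TGACTCA at bases -137 to -131 and GGAATTTCC at -91 to -83 from the start, and the IL1A stretch holds TGACTCA at -12 to -6. The stretches of IL24, IL21R and IL1RAP hold neither. Of 35116 RefSeq promoters cut to this length, 6.57% held the AP-1 motif and 5.48% the NF-kB motif. Promoters were matched for 70 of the 86 members, with 111 start sites that overlap in part, of which 17.1% held the AP-1 motif and 13.5% the NF-kB motif. Among the 43 start sites of members called higher in at least 1 treatment comparison, 11 held the AP-1 motif and 7 the NF-kB motif, and among the 68 start sites of the other members 8 held each. Genes with several start sites count more than once there. By gene, with a match at any of its start sites, 7 of 26 called and 8 of 44 other members held the AP-1 motif. For the NF-kB motif these were 6 of 26 and 8 of 44. The E-box CANNTG, the motif of the E proteins that ID3 binds, was in 71.2% of the members' start sites and in 61.8% of all. The share of G and C was 74.8% upstream of IL1RAP, 51.6% for IL24, 49.2% for IL21R, 37.6% for IL8 and 37.6% for IL1A. Its median was 62.2% over the 10 matched members called higher only before recovery, 50.8% over the 8 called higher in all 4 treatment comparisons and 58.0% over all promoters.

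Counts per library totalled 37878751 to 76906266 in AID-DIvA cells and 46285533 to 70692114 in U2OS cells. Levels are CPM, counts scaled to a common library size by TMM over the 24 libraries. ID3 RNA was still counted in ID3-KO cells, at 30.4 ± 1.56 CPM against 61.8 ± 15.6 CPM in WT in untreated U2OS and at 34.8 ± 3.41 against 50.9 ± 1.94 CPM in untreated AID-DIvA cells (SD, n = 3 each), so RNA alone does not check the knockout label. The paper reports that the knockout was checked at the protein level by Western blot. Replicate 1 of WT untreated U2OS differed more from its group mates than any other replicate pair differed. Of 9 osteoblast and mesenchymal markers, COL1A1, SPARC and VIM were at 431 CPM or more in every library, RUNX2 and SPP1 at 11.8 to 61.2 CPM and ALPL at 0.616 to 7.01 CPM, while COL1A2, the partner chain of COL1A1, did not pass 1.37 CPM, BGLAP (osteocalcin) 0.684 CPM and SP7, an osteoblast transcription factor, 0.114 CPM. Of 15 leukocyte markers, 9 never passed 0.5 CPM, among them CD3E, CD3G and LYZ at no more than 0.0608 CPM and PTPRC at no more than 0.411 CPM. Their sum per library ranged, from untreated to treated cells, from 7.14-8.75 to 10.1-11.4 CPM in WT U2OS, from 6.82-7.78 to 7.95-8.39 CPM in ID3-KO U2OS, from 6.81-7.78 to 12.1-12.7 CPM in WT AID-DIvA and from 4.67-5.48 to 9.29-11.7 CPM in ID3-KO AID-DIvA. CD3D and ITGAM were called higher in all 4 treatment comparisons; CD4 and PTPRC had log2FC below 0 in all 4 (between -1.10 and -0.42 and between -1.26 and -0.47) and were called lower in recovered WT cells. The summed endothelial markers KDR, CDH5 and VWF were at 5.51-7.44 CPM untreated and 13.9-15.1 CPM treated in WT U2OS and at 3.21-3.38 and 11.1-11.5 CPM in ID3-KO U2OS, and after recovery at 2.92-4.66 CPM in WT and 3.33-3.57 CPM in ID3-KO cells, from 3.1-3.28 and 1.71-2.07 CPM. CDH5 was called higher in all 4 treatment comparisons and KDR in all but recovered WT cells. The sum of 5 epithelial markers, mostly KRT8 and KRT18, ranged from 253 to 436 CPM over the libraries, with no call under treatment. The part of these markers in the results was not tested.

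Compared per kilobase of exon, IL18, an IL-1 family cytokine stored as an inactive precursor, stood highest of the members in each of the 8 groups, at a mean of 53.3 CPM per kb over the 24 libraries. It was followed by IL13RA2, a decoy for IL-13 (20.3), IL32 (16.9), IL10RB (14.99), IL27RA (12.8) and IL13RA1 (11.4). IL6ST (9.503), IL31RA (8.41), IL2RB (7.495), IL8 (6.84) and IL24 (6.69) came next. For IL8 the group means ran from 0.121 to 18.8 CPM per kb, for IL24 from 0.407 to 18.4 and for IL2RB from 1.75 to 20.8. IL10RB, a shared chain of the IL-10 and interferon lambda receptors, kept to 12.9 to 17.2, and IL27RA, the IL-27 receptor chain, to 11.5 to 14.8 CPM per kb. In CPM, 22 members averaged at least 10 and 37 at least 1, and for 38 members no group mean reached 0.5.

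**Figure D1:**
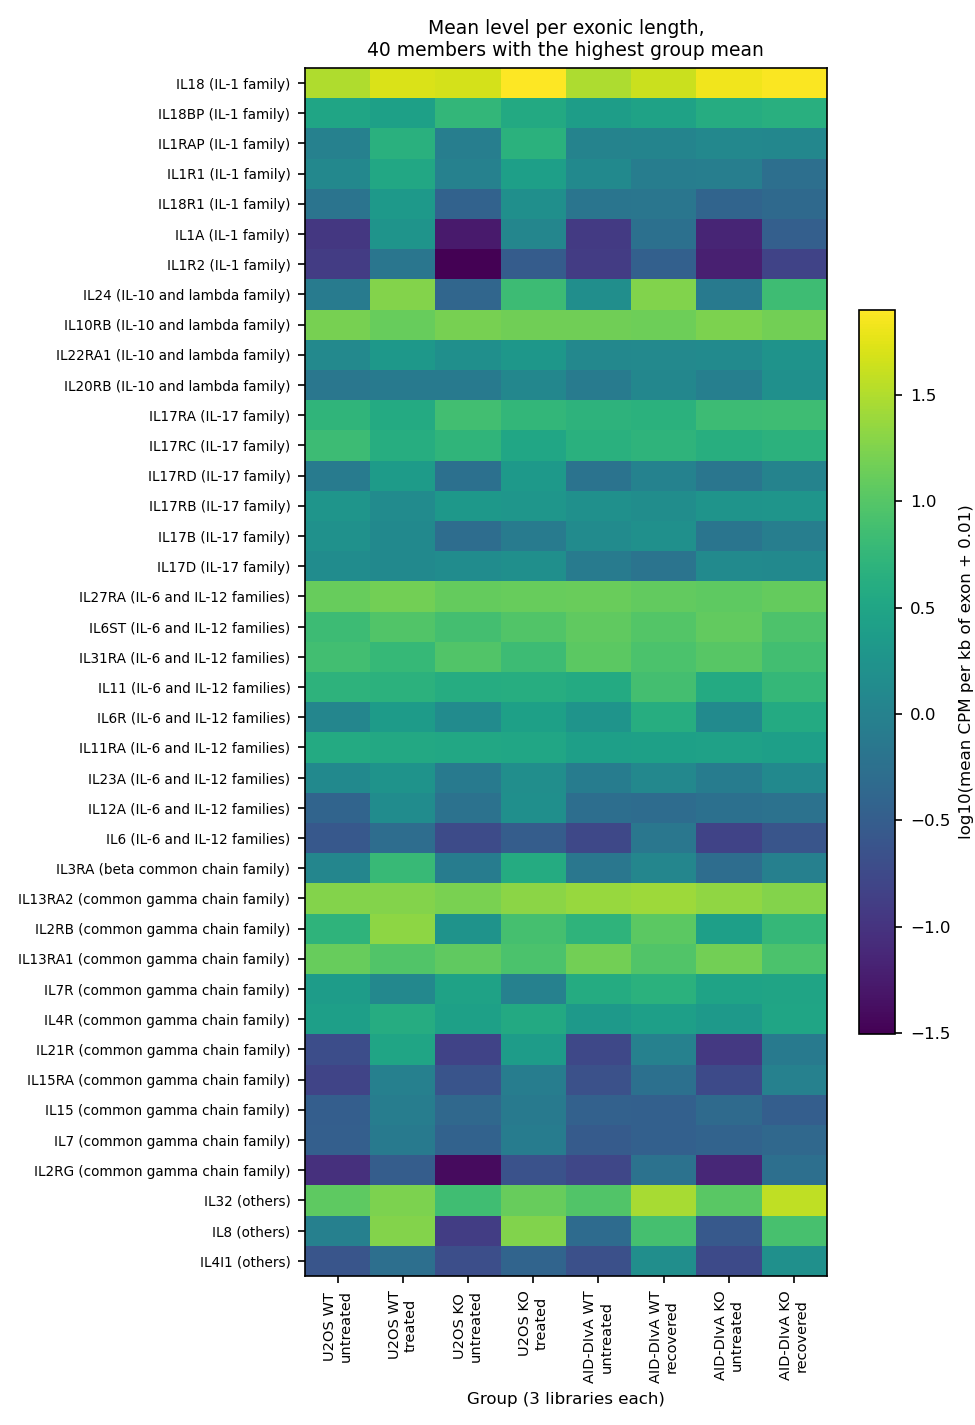
Mean CPM per kb of exon, as log10 with 0.01 added (colour), for the 40 members with the highest group mean (rows, by family) in the 8 groups of 3 libraries (columns); KO stands for ID3-KO. IL18 is the brightest cell of every column, and IL8, IL24, IL21R and IL1A are darker in untreated than in treated columns.

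Mocetinostat was compared with no treatment within each genotype and label by edgeR's quasi-likelihood test over all genes, and a gene was called when its adjusted p was under 0.05 and its log2 fold change (log2FC) above 1 or below -1. Before recovery 22 of 48 members tested were called higher with ID3 knocked out and 25 of 52 in WT, against 14.6% and 13.6% of all genes tested. After recovery 15 of 46 were called higher with ID3 knocked out and 15 of 48 in WT, against 4.9% and 4.86% of all genes. A single member was called lower, IL7R in ID3-KO cells before recovery, where 5.77% of all genes were called lower. None was called lower by edgeR in WT cells before recovery (5.06% of all genes) or, after it, in ID3-KO (2.56%) or WT cells (2.52%). With the adjusted p alone 5 of 52, 6 of 46 and 5 of 48 members were lower there, against 22.9%, 19.9% and 23% of all genes. The 34 to 40 members not tested in a comparison had too few counts. Some members entered a test only because treated cells had counts, so shares were also taken over genes with at least 10 counts in each untreated library. There 14 of 40 (ID3-KO) and 19 of 43 (WT) members were called higher before recovery, against 9.86% and 9.76% of genes, and 8 of 38 and 12 of 43 after it, against 3.22% and 3.16%.

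Of the 31 members called higher in at least 1 comparison, 9 were called in all 4, 11 in both genotypes before recovery only and 2 in both genotypes after recovery only. Of the 54 members tested in at least 1 of the comparisons, these were 57.4%, 16.7%, 20.4% and 3.7%, against 18.6%, 1.73%, 7.61% and 0.872% of all genes so tested. Here only means not called at the other stage, where some members were not tested, such as IL1RAPL1 in U2OS. IL12RB1, IL17REL and IL18RAP had at most 12 counts in any AID-DIvA library. The pattern shares were not retaken over genes with at least 10 counts in each untreated library. The 4 comparisons use separate libraries. The median log2FC of the members tested was 0.90 (ID3-KO) and 0.95 (WT) before recovery and 0.41 and 0.30 after it, and the medians over all genes lay between -0.02 and 0.01. The p-values measure the spread between the 3 replicates of a group. In bulk RNA, more cells expressing a gene and more RNA per cell cannot be told apart.

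**Figure D2:**
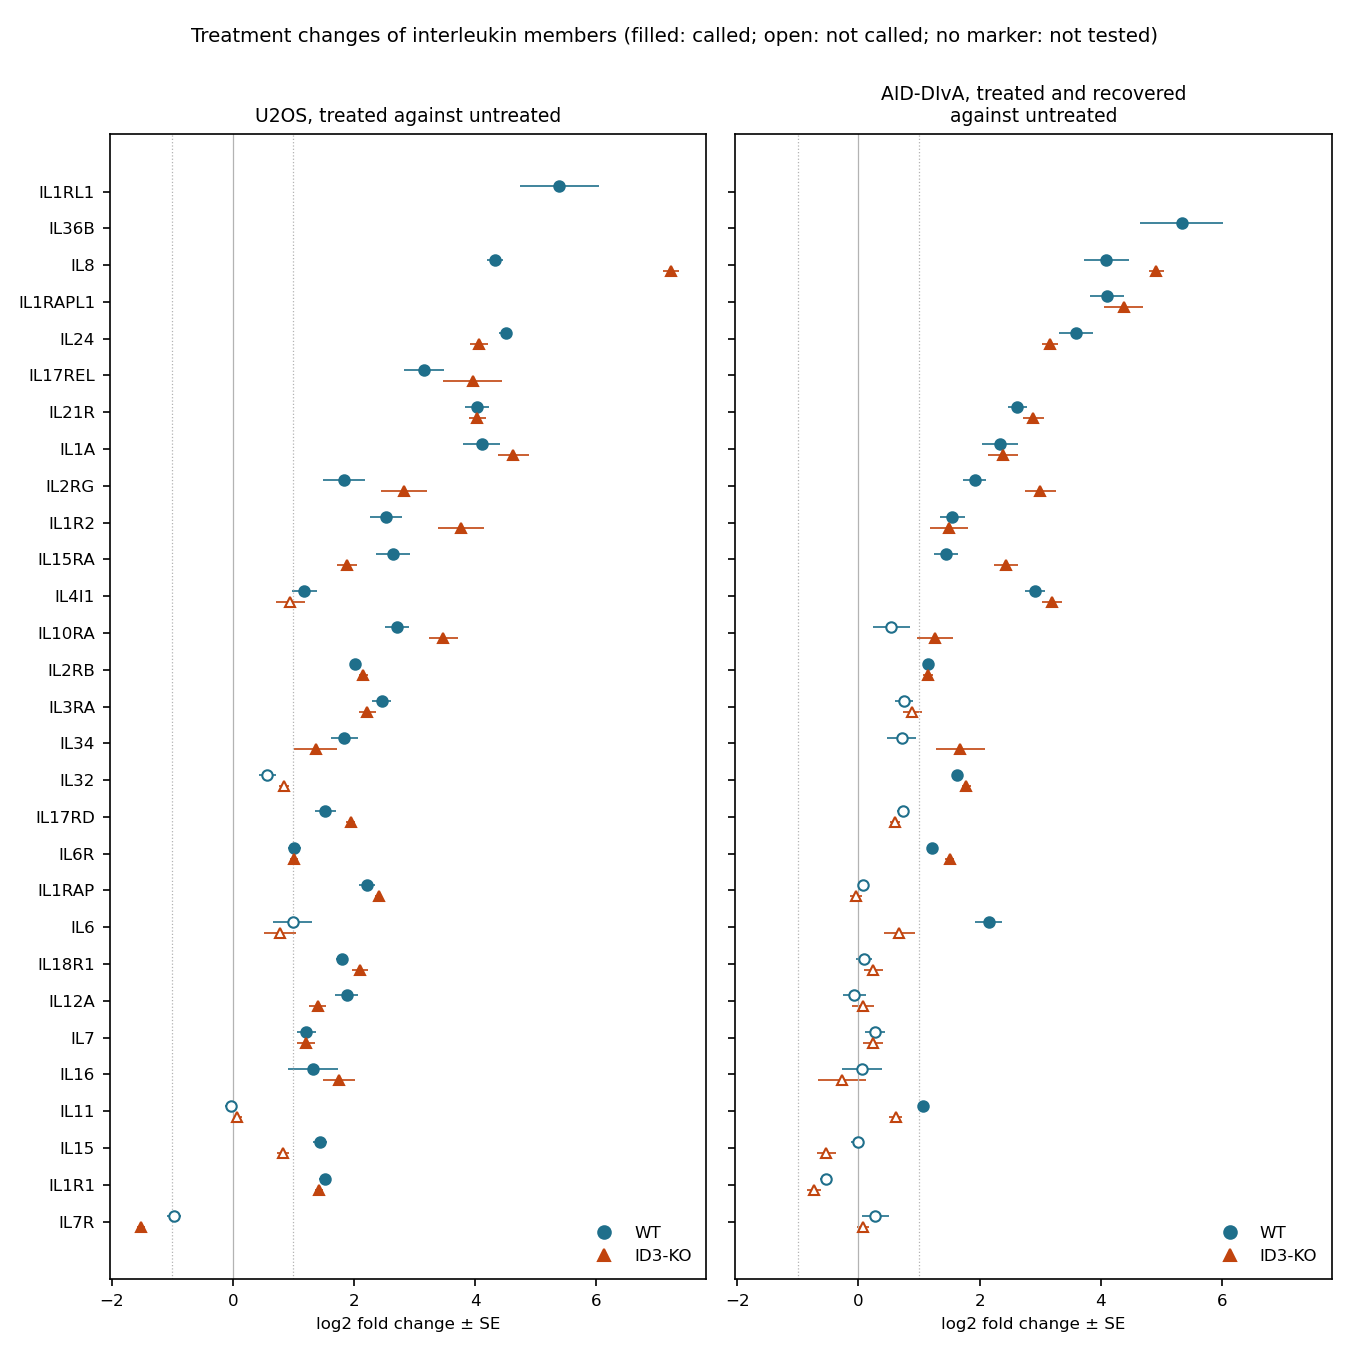
log2FC ± SE (x axis) of treated against untreated cells for the 29 members (rows) called in at least 1 treatment comparison with a group mean of at least 0.5 CPM, in U2OS before recovery (left) and AID-DIvA after recovery (right); circles are WT, triangles ID3-KO, filled markers called. IL1RAP, IL1R1 and IL18R1 lie above 1 on the left and below 1 on the right, while IL32 lies below 1 on the left and above it on the right.

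IL8 (ENSG00000169429.6, hg19 chr4:74606223-74609433, + strand), the neutrophil chemoattractant also named CXCL8, had the largest log2FC among members tested in all 4 comparisons in each but WT U2OS, where IL24 had it. In WT U2OS it was at 2.51, 1.94 and 1.92 CPM untreated and 43.5, 39.6 and 45.1 CPM treated (log2FC 4.33 ± 0.13 SE, adjusted p = 8.1e-07). In ID3-KO U2OS it was at 0.2704, 0.234 and 0.319 CPM untreated and 47.5, 38.8 and 38.01 CPM treated (log2FC 7.23 ± 0.14, adjusted p = 1.7e-20). The treated libraries of the genotypes overlapped, while every untreated ID3-KO library lay below every untreated WT library. After recovery WT cells were at 25.5, 14.2 and 13.5 CPM, from 1.27, 0.934 and 0.987 CPM untreated (log2FC 4.09 ± 0.37, adjusted p = 0.00034). ID3-KO cells were at 20.3, 16.9 and 18.2 CPM, from 0.633, 0.528 and 0.678 CPM (log2FC 4.92 ± 0.12, adjusted p = 2.7e-08).

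IL24 (ENSG00000162892.11, hg19 chr1:207070788-207077484, + strand), an IL-10 family cytokine that acts through IL20RB with IL20RA or IL22RA1, was the next most abundant of the ligands called throughout. Its treated levels were 36.5, 35.8 and 36.9 CPM in WT and 15.9, 12.7 and 12.02 CPM in ID3-KO U2OS, from 1.41, 1.76 and 1.63 and 0.618, 0.787 and 1.01 CPM untreated. After recovery they were 47.9, 28.3 and 29.5 CPM in WT and 16.3, 12.4 and 12.7 CPM in ID3-KO cells, from 2.46, 3.41 and 2.98 and 1.44, 1.49 and 1.696 CPM. In treated and in untreated cells alike, every ID3-KO library lay below every WT library of the same label. The log2FC was 4.50 ± 0.10 in WT and 4.06 ± 0.14 in ID3-KO cells before recovery, and 3.59 ± 0.28 and 3.16 ± 0.13 after it. Its neighbours IL10, IL19 and IL20 were not called in a treatment comparison, with at most 2, 4 and 4 counts in a library. Of its receptor chains, IL22RA1 averaged 4.32 CPM and IL20RB 2.43 CPM over the 24 libraries, and IL20RA had at most 7 counts in a library.

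IL1A (hg19 chr2:113531492-113542167, - strand), the IL-1 form that is active without processing, was at 3.97, 3.58 and 3.83 CPM in treated WT and 2.54, 2.62 and 2.07 CPM in treated ID3-KO U2OS, from 0.367, 0.1505 and 0.131 and 0.135, 0.0837 and 0.0709 CPM. After recovery it was at 1.67, 0.935 and 0.924 CPM in WT and 0.711, 0.652 and 0.723 CPM in ID3-KO cells, and no untreated AID-DIvA library passed 0.271 CPM. The log2FC was 4.10 ± 0.31 in WT and 4.63 ± 0.26 in ID3-KO cells before recovery, and 2.34 ± 0.30 and 2.39 ± 0.25 after it. Without replicate 1 of WT untreated U2OS the WT value before recovery was 4.72. IL1B, the other classical IL-1 ligand, had at most 6 counts in a library.

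IL1R2, the decoy that binds IL-1 without signalling, was also called throughout. It was at 0.459, 0.369 and 0.225 CPM untreated and 1.901, 1.78 and 2.48 CPM treated in WT U2OS, and at 0.0773, 0.1004 and 0.0177 and 0.9404, 0.788 and 1.01 CPM in ID3-KO U2OS. After recovery it stood at 1.02, 1.14 and 0.943 CPM in WT and 0.484, 0.4704 and 0.351 CPM in ID3-KO cells, from 0.431, 0.346 and 0.302 and 0.154, 0.111 and 0.207 CPM. The log2FC ran from 1.497 to 3.76 over the 4 comparisons, both extremes in ID3-KO cells.

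Receptor chains of the common gamma family made up 4 of the 9 members called throughout. IL2RB (hg19 chr22:37521878-37571094, - strand), which the IL-2 and IL-15 receptors share, went from 22.9, 24.8 and 24.7 to 96.4, 97.5 and 99.1 CPM in WT U2OS and from 7.96, 8.15 and 8.63 to 39.9, 33.7 and 36.4 CPM in ID3-KO U2OS (log2FC 2.02 ± 0.07 and 2.15 ± 0.07). After recovery it stood at 55.1, 48.9 and 52.1 CPM in WT and 27.6, 26.04 and 27.4 CPM in ID3-KO cells, from 23.4, 23.4 and 24.9 and 12.2, 11.03 and 13.3 CPM (log2FC 1.14 ± 0.05 and 1.15 ± 0.09). In each of the 4 pairs of groups every ID3-KO library lay below every WT library, and the difference in log2FC between genotypes was 0.14 ± 0.10 before and 0.01 ± 0.10 after recovery (adjusted p = 0.59 and 0.98).

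IL2RG, the common gamma chain itself (hg19 chrX:70327254-70331958, - strand), was far less abundant. It went from 0.337, 0.1505 and 0.206 to 0.821, 0.9902 and 0.686 CPM in WT and from 0.0773, 0.134 and 0.0355 to 0.537, 0.623 and 0.645 CPM in ID3-KO U2OS. After recovery it reached 1.84, 1.57 and 1.55 CPM in WT and 1.85, 1.43 and 1.16 CPM in ID3-KO cells, from 0.3902, 0.363 and 0.557 and 0.239, 0.153 and 0.151 CPM. Treated and untreated libraries did not overlap in any of the 4 comparisons. IL2RA, the chain that gives the IL-2 receptor its high affinity, had at most 3 counts in a library, and IL2 had none. A count of 0 allows up to 0.0396 to 0.0854 CPM, depending on the library, by counting error alone.

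IL15RA, which presents IL-15 to other cells, went from 0.612, 0.493 and 0.282 to 2.72, 2.46 and 3.67 CPM in WT and from 0.695, 0.837 and 0.674 to 2.97, 2.24 and 2.93 CPM in ID3-KO U2OS. After recovery it stood at 2.14, 1.53 and 1.55 CPM in WT and 3.53, 2.87 and 2.72 CPM in ID3-KO cells, from 0.739, 0.7095 and 0.509 and 0.359, 0.639 and 0.6596 CPM. Its ligand IL15 was called higher in WT U2OS alone, from 2.45, 2.77 and 2.31 to 6.39, 7.23 and 6.85 CPM (log2FC 1.44 ± 0.12, adjusted p = 4.4e-05). In ID3-KO U2OS IL15 was at 3.65, 3.01 and 3.56 CPM untreated and 6.197, 6.12 and 5.69 CPM treated, a log2FC of 0.82 ± 0.10 that stayed short of the fold threshold. The difference between the genotypes was -0.61 ± 0.15 (adjusted p = 0.051). After recovery the log2FC of IL15 was -0.01 ± 0.11 in WT and -0.53 ± 0.16 in ID3-KO cells, with no call.

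IL21R (hg19 chr16:27413483-27462115, + strand), the specific chain of the IL-21 receptor, had treated levels of 13.2, 13.1 and 13.5 CPM in WT and 11.3, 8.81 and 9.76 CPM in ID3-KO U2OS, from 0.551, 1.07 and 0.807 and 0.5601, 0.686 and 0.567 CPM. After recovery the treated libraries stood at 3.43, 4.58 and 4.42 CPM in WT and 3.87, 3.16 and 2.94 CPM in ID3-KO cells, from 0.739, 0.675 and 0.637 and 0.4105, 0.403 and 0.528 CPM. The log2FC was 4.02 ± 0.20 and 4.03 ± 0.14 before recovery and 2.62 ± 0.16 and 2.89 ± 0.17 after it (WT, then ID3-KO). IL21R overlaps IL21R-AS1 on the other strand, and the counts of its own strand were 190% of those made without regard to strand. IL21 had no count in any library. IL4R, its neighbour and the IL-4 receptor chain, had log2FC between 0.31 and 0.60 and was not called.

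IL6R, which gives IL-6 its specificity, went from 6.195, 7.71 and 7.64 to 14.2, 14.5 and 14.8 CPM in WT and from 8.595, 8.74 and 8.35 to 16.2, 18.1 and 17.4 CPM in ID3-KO U2OS, and its log2FC of 1.01 ± 0.10 and 1.01 ± 0.07 sit at the threshold. The WT call was lost without replicate 1 of the untreated libraries, and the ID3-KO call without replicate 3 of the untreated libraries, without replicate 2 of the treated ones or with no filter on low counts. After recovery it went from 11.3, 11.3 and 11.5 to 27.9, 24.6 and 25.4 CPM in WT and from 8.14, 8.82 and 8.03 to 23.2, 23.3 and 24.7 CPM in ID3-KO cells (log2FC 1.22 ± 0.06 and 1.51 ± 0.08). Its signalling partner IL6ST had log2FC between -0.43 and 0.46 and was not called.

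**Figure D3:**
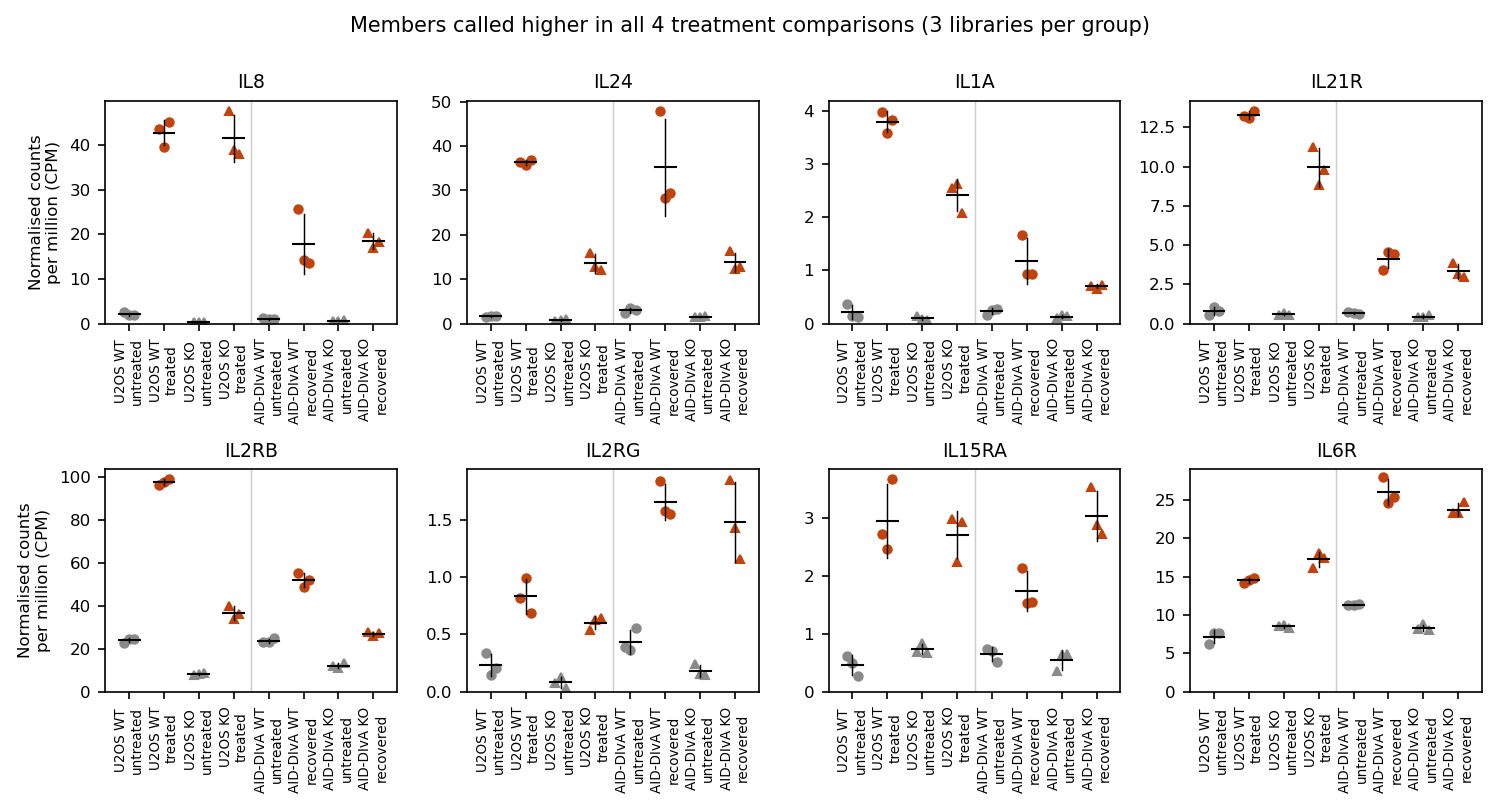
CPM in each of the 24 libraries (y axis, from 0) for 8 of the 9 members called higher in all 4 treatment comparisons, by group (x axis, 3 points per group; circles WT, triangles ID3-KO, grey untreated, red treated), with the group mean (horizontal line) and SD (vertical line). Every treated point lies above every untreated point of its own genotype and label, and IL24 and IL2RB sit lower in ID3-KO than in WT groups.

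Receptors of IL-1 and IL-18 were called higher at the end of treatment and not after recovery. IL1RAP (hg19 chr3:190231840-190375843, + strand), the accessory chain without which IL-1 receptors do not signal, went from 7.496, 9.35 and 10.97 to 40.8, 43.8 and 44.7 CPM in WT and from 8.38, 8.42 and 8.37 to 44.7, 45.7 and 42.9 CPM in ID3-KO U2OS (log2FC 2.22 ± 0.13 and 2.41 ± 0.06). In AID-DIvA cells it was at 11.1, 9.53 and 10.5 CPM in recovered WT and 10.1, 11.6 and 12.2 CPM in recovered ID3-KO cells, against 9.94, 9.66 and 10.5 and 12.3, 11.4 and 11.2 CPM untreated (log2FC 0.07 ± 0.07 and -0.04 ± 0.10). The groups overlapped after recovery and did not overlap before it. The log2FC after recovery minus that before it, fitted over the 12 libraries of a genotype, was -2.16 ± 0.15 in WT (adjusted p = 1.6e-07) and -2.45 ± 0.10 in ID3-KO cells (adjusted p = 3.4e-12).

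IL1R1, the signalling IL-1 receptor (hg19 chr2:102681004-102796334, + strand), was at 23.3, 23.3 and 25.7 CPM in treated WT and 19.8, 17.9 and 17.1 CPM in treated ID3-KO U2OS, from 7.25, 9.197 and 8.79 and 6.45, 7.03 and 7.002 CPM. After recovery it stood at 6.67, 5.56 and 6.14 CPM in WT and 4.296, 3.72 and 3.33 CPM in ID3-KO cells, below the untreated 10.5, 8.704 and 8.05 and 6.96, 6.24 and 5.62 CPM. Those log2FC of -0.54 ± 0.10 and -0.74 ± 0.11 had adjusted p = 0.00071 and 0.00074 and stayed short of the fold threshold. IL18R1, which binds IL-18, went from 2.799, 2.59 and 2.78 to 9.67, 9.03 and 9.73 CPM in WT and from 1.27, 2.01 and 1.42 to 6.62, 6.25 and 7.28 CPM in ID3-KO U2OS. After recovery it was at 3.505, 2.51 and 2.81 CPM in WT and 1.85, 1.76 and 2.26 CPM in ID3-KO cells, overlapping the untreated 3.06, 2.53 and 2.88 and 1.57, 1.903 and 1.41 CPM.

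The genes of several of these receptors lie together. In the cluster of 6 members at hg19 chr2:102608306-103069025 (IL1R2, IL1R1, IL1RL2, IL1RL1, IL18R1 and IL18RAP), 5 were called higher in WT and 4 in ID3-KO cells before recovery. Of all genes tested, 13.6% and 14.6% were called higher. IL1RL2, with at most 1 count in a library, was not tested. Some of these calls rest on members with few untreated counts. With at least 10 counts in each untreated library, IL1R2, IL1R1 and IL18R1 remained called in WT and IL1R1 and IL18R1 in ID3-KO cells. Of all such genes, 9.76% and 9.86% were called higher. After recovery IL1R2 alone was called higher in each genotype, against 4.86% and 4.9% of all genes. IL18RAP had 0, 5 and 0 counts untreated and 35, 20 and 34 treated in WT U2OS. In ID3-KO U2OS it had 0, 0 and 3 counts untreated and 16, 19 and 18 treated. IL1RL1, the IL-33 receptor, was called in WT U2OS, at 0.456, 0.515 and 0.568 CPM treated and at most 0.0274 CPM untreated, and was not tested in ID3-KO U2OS, at 0.08396, 0.257 and 0.1801 CPM treated. In the ligand cluster of 9 members at hg19 chr2:113531492-113891593, which holds IL1A, IL1B, the IL-36 genes, IL37 and IL1RN, IL1A was called in each comparison and IL36B in WT cells after recovery, with no other call.

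IL3RA, the IL-3 receptor alpha chain, went from 1.499, 1.97 and 2.37 to 10.9, 10.2 and 10.9 CPM in WT and from 1.33, 1.66 and 1.31 to 7.67, 5.52 and 6.86 CPM in ID3-KO U2OS. After recovery it was at 1.76, 1.78 and 2.24 CPM in WT and 1.74, 1.35 and 1.75 CPM in ID3-KO cells, from 1.17, 1.25 and 1.07 and 0.906, 0.806 and 0.867 CPM (log2FC 0.76 ± 0.15 and 0.89 ± 0.16, not called). Of its reads 71.3% came from its own strand. IL17RD, a chain of the IL-17 receptor family known as a brake on FGF signalling, went from 5.61, 9.63 and 8.04 to 22.9, 21.2 and 23.1 CPM in WT and from 5.78, 4.94 and 5.25 to 19.5, 21.96 and 19.7 CPM in ID3-KO U2OS. After recovery it stood at 9.21, 9.803 and 9.54 CPM in WT and 9.93, 10.2 and 9.09 CPM in ID3-KO cells, above the untreated 6.51, 5.001 and 5.89 and 6.09, 6.67 and 6.501 CPM but short of a call (log2FC 0.74 ± 0.09 and 0.60 ± 0.08).

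IL10RA, the IL-10 receptor alpha chain, was at 0.2601, 0.287 and 0.3004 CPM untreated and 1.69, 2.12 and 1.79 CPM treated in WT U2OS, and at 0.154, 0.184 and 0.177 and 2.28, 1.796 and 1.73 CPM in ID3-KO U2OS (log2FC 2.71 ± 0.20 and 3.47 ± 0.24). After recovery the treated libraries were at 0.379, 0.319 and 0.277 CPM in WT and 0.484, 0.455 and 0.329 CPM in ID3-KO cells, from 0.308, 0.1903 and 0.191 and 0.222, 0.139 and 0.1696 CPM, and the ID3-KO difference was called (log2FC 1.27 ± 0.29). The partner chain IL10RB had log2FC between -0.32 and -0.04, with no call. IL17REL, a receptor-like member of the IL-17 family, reached 0.852, 1.23 and 1.61 CPM in WT and 0.537, 0.513 and 0.691 CPM in ID3-KO U2OS from at most 0.169 CPM, and did not pass 0.0912 CPM in AID-DIvA cells.

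Among the ligands, IL12A, the p35 chain of IL-12 and IL-35, went from 0.887, 0.589 and 0.864 to 2.83, 2.69 and 3.05 CPM in WT and from 1.14, 1.34 and 1.12 to 3.43, 2.79 and 3.27 CPM in ID3-KO U2OS. After recovery its treated libraries, at 1.14, 0.912 and 0.961 CPM in WT and 1.22, 1.24 and 1.21 CPM in ID3-KO cells, overlapped the untreated 0.822, 1.07 and 1.27 and 1.27, 1.35 and 0.829 CPM. IL7, a growth factor for lymphocytes, went from 1.27, 1.03 and 0.995 to 2.54, 2.79 and 2.35 CPM in WT and from 1.101, 1.14 and 1.42 to 2.99, 3.01 and 2.46 CPM in ID3-KO U2OS, and its log2FC after recovery was 0.27 ± 0.16 and 0.24 ± 0.17 (WT, then ID3-KO), with no call. The gene overlaps ZC2HC1A on the other strand, 71.8% of its reads came from its own strand, and the WT call was lost with counts of that strand alone. IL16, a chemoattractant for CD4 cells that was called in both genotypes before recovery, did not pass 0.8797 CPM in any library and had 62% of its reads on its own strand. Its WT call was lost without replicate 2 of the untreated or replicate 2 or 3 of the treated libraries.

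IL7R, the IL-7 receptor alpha chain, went the other way before recovery. In ID3-KO U2OS it fell from 17.2, 16.7 and 17.4 to 5.91, 6.16 and 5.81 CPM (log2FC -1.52 ± 0.07, adjusted p = 4.3e-15). In WT U2OS it was at 12.3, 15.5 and 15.1 CPM untreated and 7.18, 6.59 and 8.05 CPM treated (log2FC -0.97 ± 0.12, adjusted p = 0.00038), short of the fold threshold. In AID-DIvA cells it was at 37.99, 24.4 and 22.2 CPM in recovered WT and 16.2, 19.9 and 19.96 CPM in recovered ID3-KO cells, overlapping the untreated 20.9, 23.1 and 26.6 and 18.7, 17.9 and 16.9 CPM.

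After recovery IL32 (hg19 chr16:3115298-3131908, + strand), a proinflammatory cytokine with no known classical receptor, stood at 84.2, 83.5 and 83.5 CPM in WT and 117, 106 and 104 CPM in ID3-KO cells, from 27.8, 28.4 and 26.7 and 30.5, 31.5 and 32.5 CPM (log2FC 1.62 ± 0.05 and 1.78 ± 0.07, adjusted p = 3.2e-11 and 1.5e-07). Before recovery it was at 41.5, 29.1 and 30.7 CPM untreated and 49.2, 51.95 and 49.1 CPM treated in WT U2OS, and at 20.9, 22.5 and 19.7 and 43.2, 33.6 and 36.3 CPM in ID3-KO U2OS (log2FC 0.57 ± 0.14 and 0.85 ± 0.08, not called). The difference between the stages was 1.05 ± 0.15 in WT and 0.93 ± 0.12 in ID3-KO cells (adjusted p = 0.00010 and 1.9e-06). IL4I1, a secreted amino acid oxidase, went from 0.596, 0.502 and 0.477 to 4.51, 3.72 and 3.36 CPM in WT and from 0.513, 0.486 and 0.3204 to 4.695, 3.92 and 3.73 CPM in ID3-KO cells after recovery. Before it, IL4I1 was at 0.459, 0.671 and 0.714 CPM untreated and 1.43, 1.33 and 1.41 CPM treated in WT U2OS, which was called, and at 0.444, 0.653 and 0.39 and 1.14, 0.916 and 0.841 CPM in ID3-KO U2OS, which was not (log2FC 0.95 ± 0.24).

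IL1RAPL1, a synaptic member of the IL-1 receptor family, was called after recovery, at 1.91, 1.32 and 1.35 CPM in WT and 1.05, 1.001 and 1.14 CPM in ID3-KO cells from at most 0.104 CPM; in U2OS it did not pass 0.465 CPM and was not tested. IL6, IL11 and IL36B were called in recovered WT cells alone. IL6 went from 0.554, 0.329 and 0.414 to 2.33, 1.44 and 1.81 CPM in WT (log2FC 2.15 ± 0.23, adjusted p = 4.7e-06). In ID3-KO cells it was at 0.342, 0.403 and 0.415 CPM untreated and 0.882, 0.4704 and 0.592 CPM recovered (log2FC 0.67 ± 0.26, adjusted p = 0.062). In U2OS, IL6 was at 0.612, 0.411 and 1.07 CPM untreated and 1.29, 1.33 and 1.45 CPM treated in WT and at 0.502, 0.301 and 0.656 and 0.789, 0.9896 and 0.721 CPM in ID3-KO cells, with no call. IL11, a gp130 cytokine of bone, went from 10.4, 10.2 and 9.42 to 21.6, 19.9 and 20.4 CPM in WT and was at 10.01, 9.56 and 10.6 CPM untreated and 18.4, 14.3 and 13.8 CPM recovered in ID3-KO cells (log2FC 1.07 ± 0.06 and 0.62 ± 0.11), and its U2OS libraries lay between 10.2 and 14.9 CPM. The difference between the genotypes was -1.47 ± 0.37 for IL6 (adjusted p = 0.073) and -0.44 ± 0.13 for IL11 (adjusted p = 0.13), so neither response was shown to differ. IL36B reached 0.834, 0.479 and 0.3696 CPM in recovered WT cells from at most 0.0411 CPM and was not tested in ID3-KO cells, where no library passed 0.197 CPM.

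**Figure D4:**
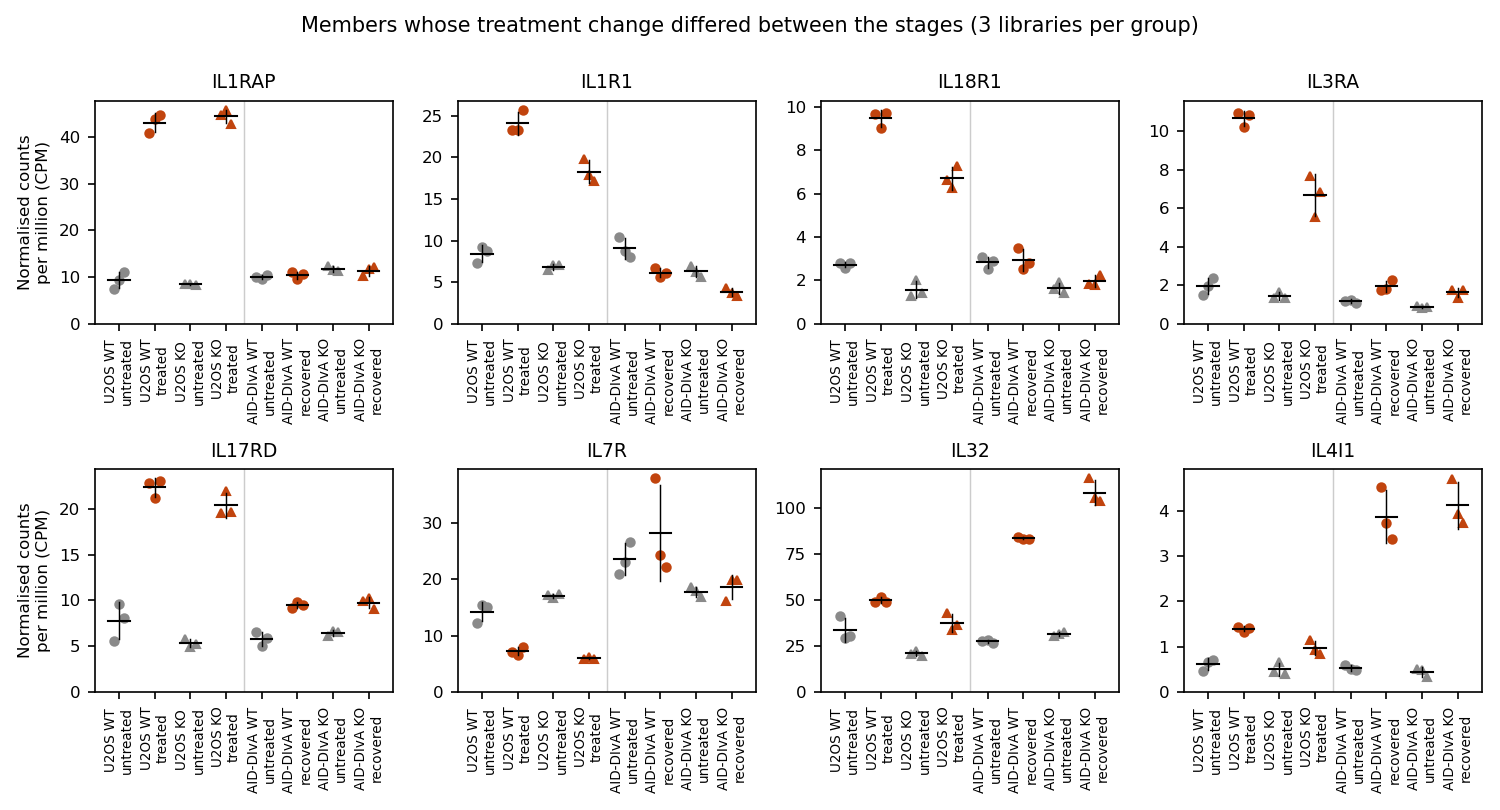
CPM in each of the 24 libraries (y axis, from 0) for 8 members whose treatment change differed between the stages in both genotypes, by group (x axis, 3 points per group; circles WT, triangles ID3-KO, grey untreated, red treated; horizontal line mean, vertical line SD). IL1RAP, IL1R1, IL18R1, IL3RA and IL17RD are highest in treated U2OS, IL7R is lowest there, and IL32 and IL4I1 are highest in recovered AID-DIvA cells.

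The change from before to after recovery was tested as a difference of log2FC over the 12 libraries of each genotype, with no fold threshold. In ID3-KO cells 29 of 50 members passed, 19 of them with a lower log2FC after recovery, and in WT cells 35 of 53, 25 of them lower. Over all genes 52.5% and 42.2% passed. By direction, 38% and 47.2% of the members were lower, against 27.7% and 21.7% of all genes. The members with a higher log2FC after recovery were 20% and 18.9%, against 24.8% and 20.5% of all genes.

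Untreated ID3-KO and WT cells were compared to describe the baseline. IL18 (hg19 chr11:112013974-112034840, - strand) was higher in ID3-KO AID-DIvA cells, at 185, 177 and 163 CPM against 76.5, 80.1 and 81.8 CPM in WT (log2FC 1.12 ± 0.05, adjusted p = 7.1e-11). In U2OS it was at 126, 127 and 124 CPM in ID3-KO and 92.6, 72.8 and 79.3 CPM in WT cells (log2FC 0.62 ± 0.10, adjusted p = 0.0063), short of the fold threshold. IL18BP, which traps IL-18, had log2FC of 0.70 ± 0.07 in AID-DIvA and 0.82 ± 0.15 in U2OS (adjusted p = 5.3e-07 and 0.011). The receptor IL18R1 had log2FC of -0.79 ± 0.13 and -0.80 ± 0.19 (adjusted p = 0.00014 and 0.027). IL17RA, the shared IL-17 receptor chain, was at 60.9, 59.9 and 62.8 CPM in ID3-KO against 44.98, 43.97 and 44.2 CPM in WT AID-DIvA and at 69.3, 65.99 and 67.7 against 47.5, 48.1 and 45.8 CPM in U2OS (log2FC 0.45 ± 0.05 and 0.51 ± 0.07, short of the fold threshold).

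IL18 was the 1 member of 45 called higher in untreated ID3-KO AID-DIvA cells, where 2.27% of all genes were; 4 members were called lower (IL1R2, IL2RG, IL17B and IL34), against 2.3% of genes. In U2OS edgeR called none of 43 higher and 4 lower (IL8, IL2RB, IL1R2 and IL17B), against 1.42% and 2.84% of all genes. With the adjusted p alone 3 were higher, against 6.56% of all genes. IL17B was at 0.736, 0.695 and 0.904 CPM in ID3-KO against 1.75, 1.66 and 1.62 CPM in WT AID-DIvA and at 0.521, 0.753 and 0.585 against 2.34, 1.66 and 1.896 CPM in U2OS (log2FC -1.13 ± 0.15 and -1.66 ± 0.22). IL2RB had log2FC of -0.99 ± 0.07 and -1.56 ± 0.08, IL8 of -0.81 ± 0.19 and -2.95 ± 0.22 and IL24 of -0.97 ± 0.14 and -0.995 ± 0.21 (AID-DIvA, then U2OS). The IL1R2 call (log2FC -1.22 ± 0.33 and -2.41 ± 0.55) rested on libraries of at most 0.459 CPM. It was lost in AID-DIvA without replicate 2 of ID3-KO, and in U2OS without any of the 3 ID3-KO libraries or without replicate 2 of WT. The IL34 call (log2FC -1.29 ± 0.34) was lost without replicate 3 of WT. Of 43 members tested in both labels, whose libraries are separate, 32 had a log2FC of the same sign. The share over all genes was not taken, so this count does not set the members apart from other genes.

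**Figure D5:**
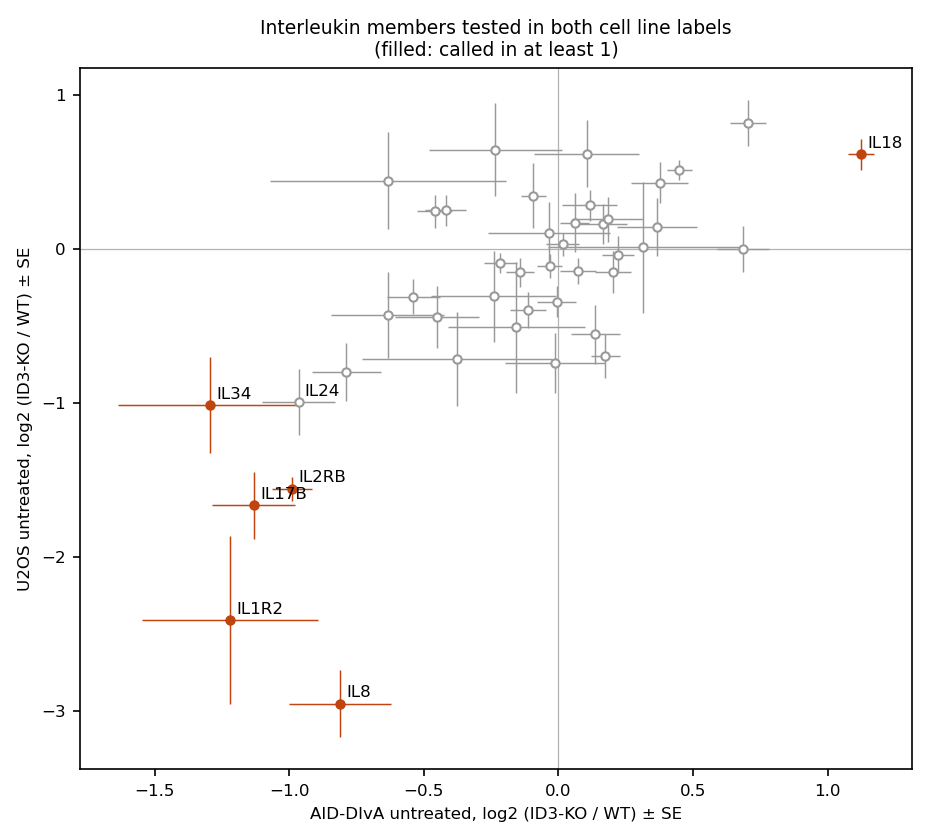
log2FC ± SE of ID3-KO against WT in untreated AID-DIvA (x axis) and untreated U2OS cells (y axis) for the 43 members tested in both; filled points were called in at least 1 of the comparisons. Of the filled points IL18 lies at the upper right, and IL8, IL1R2, IL17B, IL2RB and IL34 lie at the lower left.

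Whether the response to mocetinostat differed between the genotypes was tested as an interaction. Before recovery 2 of 53 members passed, against 2.15% of all genes. IL8 rose more in ID3-KO cells (difference of log2FC 2.91 ± 0.23, adjusted p = 1.2e-05), from a lower untreated level to overlapping treated levels. IL7R had a difference of -0.55 ± 0.13 (adjusted p = 0.050), lost without any library of ID3-KO or treated WT cells, without replicate 3 of untreated WT, with reverse-strand counts and with the replicate number as a block. Without replicate 1 of WT untreated U2OS, 7 members passed. After recovery edgeR passed none of 48 members, against 1.21% of all genes; 12 had an unadjusted p under 0.05 and DESeq2 passed 1. Without replicate 1 of the recovered ID3-KO libraries 2 passed, and without replicate 1 of the recovered WT libraries 1. For IL8 the difference after recovery was 0.84 ± 0.42 (adjusted p = 0.47).

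Genes that carry interleukin signals inside the cell were taken from lists. None of the 4 JAK kinases was called by edgeR in a treatment comparison, and of 7 STAT factors STAT6 was called lower in ID3-KO U2OS (log2FC -1.10 ± 0.04; -0.97 ± 0.08 in WT). Of 8 SOCS inhibitors, CISH and SOCS2 were called higher in both genotypes before recovery (log2FC 1.03 and 1.03 in WT, 1.09 and 1.09 in ID3-KO cells) and not after it. SOCS1, which blocks JAK kinases, was called lower in WT cells before (log2FC -1.40 ± 0.19) and after recovery (-1.45 ± 0.17). In ID3-KO cells SOCS1 had log2FC of -0.07 ± 0.11 and -0.33 ± 0.13, and the interaction passed at both stages (1.33 ± 0.21, adjusted p = 0.0041, and 1.13 ± 0.24, adjusted p = 0.025). Its level in U2OS was 7.14 ± 1.67 CPM untreated and 2.73 ± 0.2803 CPM treated in WT, and 3.53 ± 0.0602 and 3.35 ± 0.202 CPM in ID3-KO cells (SD, n = 3). Without treatment SOCS1 was itself called lower, and SOCS7 higher, in ID3-KO than in WT U2OS cells.

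Of 16 genes of IL-1 signalling and the inflammasome, IRAK2, a kinase recruited by IL-1 receptors, was called higher before recovery, from 2.75 ± 0.398 to 11.4 ± 0.5497 CPM in WT and from 1.93 ± 0.168 to 9.55 ± 0.455 CPM in ID3-KO U2OS (SD, n = 3). It was not called after recovery (log2FC 0.80 ± 0.10 and 0.72 ± 0.11). NLRP3, the inflammasome sensor, was called higher in recovered WT cells (log2FC 1.06 ± 0.30; 0.93 ± 0.11 in ID3-KO) and lower in treated ID3-KO U2OS (-1.24 ± 0.15; -0.36 ± 0.15 in WT). Among 13 partner chains and ligands with other names, the gp130 cytokines LIF, CLCF1 and CTF1 were called lower in both genotypes before recovery, with log2FC between -2.22 and -1.52, and not after it. The receptors LIFR, CNTFR and CRLF2, and TSLP, the ligand of CRLF2, were called higher in both, with log2FC between 1.08 and 2.95. EBI3, which pairs with IL12A or IL27, was called higher in all but WT U2OS (log2FC 0.89 ± 0.09 there) and lower in untreated ID3-KO cells (log2FC -1.04 ± 0.10 in AID-DIvA, -1.18 ± 0.10 in U2OS). Between untreated genotypes CRLF2 was called higher in ID3-KO U2OS and CASP4 in ID3-KO AID-DIvA cells. TRAF3IP2, the adaptor of IL-17 receptors, was not called (log2FC between -0.95 and 0.26). The interaction also passed for STAT5A (-0.66 ± 0.15) and NLRP3 (-0.88 ± 0.21) before recovery and for EBI3 (0.68 ± 0.15) and IRAK4 (-0.57 ± 0.13) after it.

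Several abundant members were called in no treatment comparison. IL13RA1, an IL-13 receptor chain, had log2FC of -0.45 (WT) and -0.45 (ID3-KO) before recovery and -0.66 and -0.77 after it, and IL31RA, the IL-31 receptor chain, lay between -0.52 and -0.34. IL17RC, which pairs with IL17RA, had log2FC of -0.73 and -0.68 before and 0.18 and 0.19 after recovery. IL11RA, the IL-11 receptor chain, at a mean of 13.1 CPM, had log2FC between -0.11 and 0.08. IL23A, the p19 chain of IL-23, averaged 1.23 CPM with 65.2% of its reads on its own strand and had log2FC between 0.44 and 0.95, and IL17RE, an IL-17 receptor chain, did not pass 0.811 CPM. IL13RA2 had log2FC between -0.20 and 0.27, IL27RA between -0.08 and 0.19 and IL17RB between -0.43 and 0.07. IL18, the most abundant member, had log2FC of 0.72 and 0.74 before and 0.53 and 0.20 after recovery. IL34, a ligand of the CSF1 receptor, was at 0.337, 0.301 and 0.3004 CPM untreated and 1.14, 0.931 and 1.29 CPM treated in WT U2OS and at 0.154, 0.134 and 0.177 and 0.487, 0.293 and 0.4203 CPM in ID3-KO U2OS, both called. After recovery IL34 stood at 0.493, 0.616 and 0.591 CPM in WT, which was not called, and 0.683, 0.288 and 0.504 CPM in ID3-KO cells, which was, from 0.287, 0.329 and 0.414 and 0.205, 0.0973 and 0.132 CPM. The treated and untreated libraries of IL34 did not overlap in any of the 4 comparisons, and its log2FC lay between 0.72 and 1.84. Of the reads counted for IL17D, 14.5% were on its own strand, so its level of 4.04 CPM is mostly reads of the other strand. In all, 54 of the 86 members were called in no treatment comparison.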

How the data were processed

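Stranded total RNA of 24 libraries was sequenced paired-end, and per the methods alignment by the authors used STAR against hg19/GRCh37, with featureCounts for counting per gene; versions are not given in the sources used here. The deposited counts are whole fragments per gene from either strand, with counts per strand beside them; the deposited FPKM and TPM columns were not used. Counting without strand lets reads of an antisense neighbour add to, or drop out of, a gene, so counts of the reverse strand were an alternative.

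Counts were tested in R 4.3.3 with edgeR 4.0.16 (TMM, filterByExpr, robust quasi-likelihood F test, Benjamini-Hochberg adjustment over all genes), using the 6 libraries of a comparison or the 12 of an interaction or stage difference; a call needed an adjusted p under 0.05 and, except for interactions and stage differences, an absolute log2FC above 1. CPM used TMM factors over all 24 libraries. The scripts were tested on simulated data. Alternatives were DESeq2 1.42.0, its size factors, other count filters, reverse-strand counts, a joint fit, a replicate block and leaving out each library. Floors (3 counts) cover counting error only, whereas SD and SE include the spread between replicates.

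Groups followed the sample titles. Named members are those called in at least 1 comparison with a group mean of at least 0.5 CPM, or averaging at least 1 CPM; values per library are given for those called under treatment with a group mean of at least 1 CPM, and for others where a result turned on them. The members and lists were chosen with earlier results of these data known.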

Additional observations from a re-analysis of the deposited data

Results flagged for a closer look

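The response to mocetinostat differed between the genotypes before recovery for IL8 and IL7R, by the interaction test. The log2FC in ID3-KO cells minus that in WT cells was 2.91 for IL8, whose untreated level was lower in ID3-KO cells, and -0.55 for IL7R. These were 2 of 53 members, against 2.15% of all genes. The IL7R difference had adjusted p = 0.050 by edgeR and was lost in 12 of the alternatives.

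The response also differed between the stages, by the test over the 12 libraries of a genotype, for 29 of 50 members in ID3-KO and 35 of 53 in WT cells, where 52.5% and 42.2% of all genes passed. Values are the log2FC after recovery minus that before it; those of members near 0 counts, such as IL36B, IL1RL1, IL17REL and IL18RAP, depend on the prior count. In ID3-KO cells the differences below 0 were IL1RAP -2.45, IL8 -2.32, IL1R2 -2.28, IL1A -2.25, IL10RA -2.22, IL1R1 -2.17, IL16 -2.03, IL18R1 -1.86, IL15 -1.36, IL17RD -1.35, IL3RA -1.34, IL12A -1.33, IL21R -1.15, IL2RB -1.01, IL7 -0.97, IL24 -0.91, IL6ST -0.76, IL18 -0.55 and IL13RA1 -0.34. Those above 0 in ID3-KO cells were IL17RA 0.41, IL6R 0.49, IL11 0.54, IL18BP 0.72, IL17RC 0.87, IL17RE 0.89, IL32 0.93, IL7R 1.58, IL9R 1.67 and IL4I1 2.23. In WT cells the differences below 0 were IL1RL1 -3.82, IL17REL -3.53, IL18RAP -2.76, IL12RB1 -2.57, IL10RA -2.18, IL1RAP -2.16, IL1R1 -2.07, IL36G -1.97, IL12A -1.95, IL1A -1.77, IL18R1 -1.72, IL3RA -1.71, IL15 -1.46, IL21R -1.41, IL15RA -1.21, IL34 -1.13, IL1R2 -0.98, IL7 -0.95, IL24 -0.92, IL2RB -0.88, IL17RD -0.80, IL6ST -0.68, IL22RA1 -0.66, IL4R -0.29 and IL27RA -0.28. Those above 0 in WT cells were IL17RA 0.40, IL18BP 0.49, IL17RC 0.91, IL32 1.05, IL11 1.10, IL6 1.14, IL7R 1.24, IL4I1 1.72, IL1RAPL1 2.73 and IL36B 5.33. Leaving out a single library moved some WT values by over 1.5 times on the linear scale: IL36B lay between 3.89 and 8.08, IL1RL1 lay between -6.33 and -3.12, IL17REL lay between -4.55 and -2.92, IL18RAP was at -6.43 without U2OS WT untreated replicate 2, IL12RB1 was at -3.22 without AID-DIvA WT treated and recovered replicate 1 and IL1A was at -2.39 without U2OS WT untreated replicate 1. Some of these differences lost their call under alternatives. In ID3-KO cells these were IL17RE in 10 and IL13RA1 in 8 of the settings tried, and in WT cells IL18BP in 13, IL18RAP in 9, IL6 in 9, IL1R2 in 8, IL36G in 6, IL4R in 6, IL27RA in 5, IL1RL1 in 2, IL12RB1 in 1, IL24 in 1, IL36B in 1, IL6ST in 1 and IL7 in 1.

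Replicate 1 of recovered WT AID-DIvA stood above its group mates for several members, with IL8 at 25.5, 14.2 and 13.5 CPM, IL24 at 47.9, 28.3 and 29.5 CPM and IL7R at 37.99, 24.4 and 22.2 CPM in replicates 1, 2 and 3.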

How the results depend on the processing

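Of 2365 alternative values of 153 gene results, 2258 kept their direction and their side of the threshold and 107, over 23 results, lost the call; none changed sign. With the adjusted p alone, 23 of 48 members were higher in recovered WT cells (23.9% of all genes). In treated ID3-KO cells 34 of 48 were (35.8%). Lower were 6 of 46 in recovered ID3-KO (19.9%) and 5 of 48 in recovered WT cells (23%). Treated cells had 7 of 48 lower in ID3-KO (34%) and 5 of 52 in WT (22.9%). Between untreated genotypes 23 of 45 passed in AID-DIvA, 8 higher and 15 lower, against 18.6% and 18.1% of all genes. In U2OS 11 of 43 passed, 3 higher and 8 lower, against 6.56% and 8.63%. With at least 10 counts in every library, 8 members were higher in recovered and 14 in treated ID3-KO cells, and 2 differed between untreated AID-DIvA genotypes, fewer members being tested. DESeq2 passed 1 (AID-DIvA) and 4 (U2OS) interactions, and no filter on low counts 3 in AID-DIvA. Between untreated U2OS genotypes, 1 fit of the 4 groups called 7 and reverse-strand counts 7. The causes were not tested.

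Leaving out each library in turn gave 15 to 16 (recovered ID3-KO), 15 to 15 (recovered WT), 23 to 28 (treated ID3-KO) and 24 to 26 (treated WT) members higher, and 0 to 0, 0 to 0, 1 to 2 and 0 to 1 lower. It gave 4 to 7 and 3 to 5 for the untreated genotypes, 0 to 2 and 1 to 7 for the interactions (AID-DIvA, then U2OS), and 28 to 32 (ID3-KO) and 27 to 38 (WT) for the stages. The highest U2OS interaction count came without replicate 1 of WT untreated U2OS. In ID3-KO U2OS 2 members were lower without treated replicate 3, and 1 was lower in WT U2OS without treated replicate 3 or untreated replicate 1.

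Same-numbered replicates correlated between -0.347 and 0.238 in their deviations from the group means. In ID3-KO U2OS each replicate correlated best with its own number, at 0.042 to 0.085. With 3 libraries per group these values cannot decide whether the numbers pair the samples. With the replicate number as a block, 1 AID-DIvA and 1 U2OS interaction passed, and the other counts stayed within 1.5 times. Members with few counts, such as IL2RG and IL1R2, are the ones for which depth limits the precision.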
